A study of Mus musculus with 4 samples.

Results

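The interferon regulatory factor (IRF) genes examined here were Irf1, Irf2, Irf3, Irf4, Irf5, Irf7, Irf8 and Irf9 of the mouse. They were chosen by gene name on an Agilent whole mouse genome array, with earlier results of these arrays known, and every spot that is not a control and carries one of these names was taken. This gave 8 genes of 31709 on the array and 9 spots of 43020, since Irf1 has 2 probes and each other member has 1. Because the choice was made in view of the same 4 arrays, all values of the members are given as a description.

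RNA was from mouse embryonic fibroblasts (MEFs), cells grown from embryos. WT MEFs (p53+/+) and p53-/- MEFs, which lack the tumor suppressor p53 (gene Trp53), were each used without an agent and with doxorubicin, a DNA-damaging chemotherapy drug. There was 1 array per condition, all 4 on 1 slide, so no difference has a replicate check and the place on the slide cannot be told apart from the condition. The labels give neither dose nor time of the doxorubicin treatment for these arrays, nor the number of embryos or cultures behind each RNA, nor an age.

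IRFs are transcription factors that share a DNA-binding domain and recognise the interferon-stimulated response element (ISRE) in the promoters of interferons and of interferon-stimulated genes. Irf3 and Irf7 are activated by kinases downstream of sensors of foreign or misplaced nucleic acid and turn on type I interferon genes. Secreted interferon then acts through its receptor, the JAK kinases and a complex that holds Stat2 and Irf9, and in fibroblasts this second step raises the transcription of many antiviral genes, Irf7 among them.

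The sequences of 4 member promoters are shown because they hold all the motif matches found among the members (Irf1, Irf2 and Irf8), or belong to the member that was above background with doxorubicin alone (Irf7). Each runs 5′ to 3′ from 250 bases before to 50 bases after a RefSeq transcription start on GRCm38.p6, and capitals mark matches to a searched motif.
Irf1, chr11:53769764-53770063, plus strand: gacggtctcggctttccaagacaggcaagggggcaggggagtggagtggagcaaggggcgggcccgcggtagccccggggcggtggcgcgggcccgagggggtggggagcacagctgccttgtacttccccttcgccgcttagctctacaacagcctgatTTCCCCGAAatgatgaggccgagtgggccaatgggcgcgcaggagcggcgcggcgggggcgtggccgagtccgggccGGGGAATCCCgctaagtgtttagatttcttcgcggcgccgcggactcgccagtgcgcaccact
Irf2, chr8:46739495-46739794, plus strand: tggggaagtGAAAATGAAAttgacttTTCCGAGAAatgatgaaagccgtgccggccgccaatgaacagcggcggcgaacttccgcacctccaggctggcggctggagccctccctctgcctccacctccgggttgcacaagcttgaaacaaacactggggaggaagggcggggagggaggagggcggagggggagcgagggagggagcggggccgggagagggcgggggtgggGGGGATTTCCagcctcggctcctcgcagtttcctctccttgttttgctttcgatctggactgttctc
Irf7, chr7:141266375-141266674, minus strand: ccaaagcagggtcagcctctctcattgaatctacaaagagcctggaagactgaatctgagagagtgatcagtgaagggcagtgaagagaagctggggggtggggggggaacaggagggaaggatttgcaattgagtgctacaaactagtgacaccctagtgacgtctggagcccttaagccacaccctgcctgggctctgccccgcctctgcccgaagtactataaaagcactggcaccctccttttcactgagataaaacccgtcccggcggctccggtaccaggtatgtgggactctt
Irf8, chr8:120736108-120736407, plus strand: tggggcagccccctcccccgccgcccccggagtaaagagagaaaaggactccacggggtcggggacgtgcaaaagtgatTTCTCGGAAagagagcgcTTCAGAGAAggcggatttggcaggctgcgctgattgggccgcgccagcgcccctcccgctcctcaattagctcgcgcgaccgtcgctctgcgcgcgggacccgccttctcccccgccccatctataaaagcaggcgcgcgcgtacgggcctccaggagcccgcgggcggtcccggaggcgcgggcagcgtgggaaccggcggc

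The motifs searched on both strands were the ISRE (GAAANNGAAA), the GAS element bound by STAT dimers (TTCNNNGAA), the kappaB site and the p53 half-site. All 8 members had at least 1 window, 11 windows in all, because Irf1, Irf8 and Irf9 have more than 1 start in RefSeq. Irf1 held a GAS match (TTCCCCGAA, first base 90 bases before the start) and a kappaB match (GGGGAATCCC, 13 bases before the start). Irf2 held an ISRE match (GAAAATGAAA, 241 bases before the start), a GAS match (TTCCGAGAA, 224 bases before the start) and a kappaB match (GGGGATTTCC, 17 bases before the start). Irf8 held 2 GAS matches (TTCTCGGAA and TTCAGAGAA, 171 and 153 bases before the start). The windows of Irf3, Irf4, Irf5, Irf7 and Irf9 held none of these letters, and no member window held a p53 half-site. Of 32851 mouse promoter windows of the same length, 3.44% held the ISRE, 8.30% the GAS element, 8.46% the kappaB site and 8.36% the p53 half-site. A match is a description of the letters only.

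Signals are the processed intensities of Agilent Feature Extraction. They were put on a common scale as a percent of the 75th percentile of each array, which was a signal of 2074 in untreated WT, 1819 in doxorubicin-treated WT, 1881 in untreated p53-/- and 2421 in doxorubicin-treated p53-/- MEFs. Ratios below are log2 ratios after this scaling, and a gene was called higher or lower where the ratio was at least 2-fold and its probe was marked well above background on both arrays. The error given with a ratio is that of the Feature Extraction error model, propagated to the ratio. Spots of the 253 probes that are printed 10 times per array had an SD of 0.08 on the log2 scale, or 0.11 for a ratio of 2 arrays, and 2 such SD are 0.23. Both errors cover the array alone, not separate cultures. The brightest negative controls had signals of 108, 77.5, 250.1 and 120 in the order above. The Trp53 probe had signals of 1228, 3442, 442 and 543 in the same order, a log2 ratio of p53-/- over WT of −1.33 without and −3.08 with doxorubicin, and its place relative to the targeted sequence of Trp53 was not examined. All 10 fibroblast markers were well above background on every array, though with doxorubicin Pdgfra (−3.36), Pdgfrb (−2.44) and Dcn (−1.30) fell in WT MEFs and Pdgfrb (−1.73) fell in p53-/- MEFs. Of 4 epithelial markers, 2, 3, 2 and 3 were well above background. Their summed levels were 555%, 953%, 525% and 1769% of the 75th percentile in the order above, highest on the treated p53-/- array. The Krt18 probe, with signals of 9825, 16189, 8346 and 40299, made up most of each sum and rose by 1.91 in p53-/- MEFs. Krt8 had −0.46 in WT and 0.32 in p53-/- MEFs. Epcam was not well above background on any array, and Cdh1 was so on the treated arrays alone, with signals of 56.2 and 130. The part of these shifts in the members' values was not tested. In RNA of a whole culture, fewer cells of a type and less RNA per cell cannot be told apart.

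**Figure D1:**
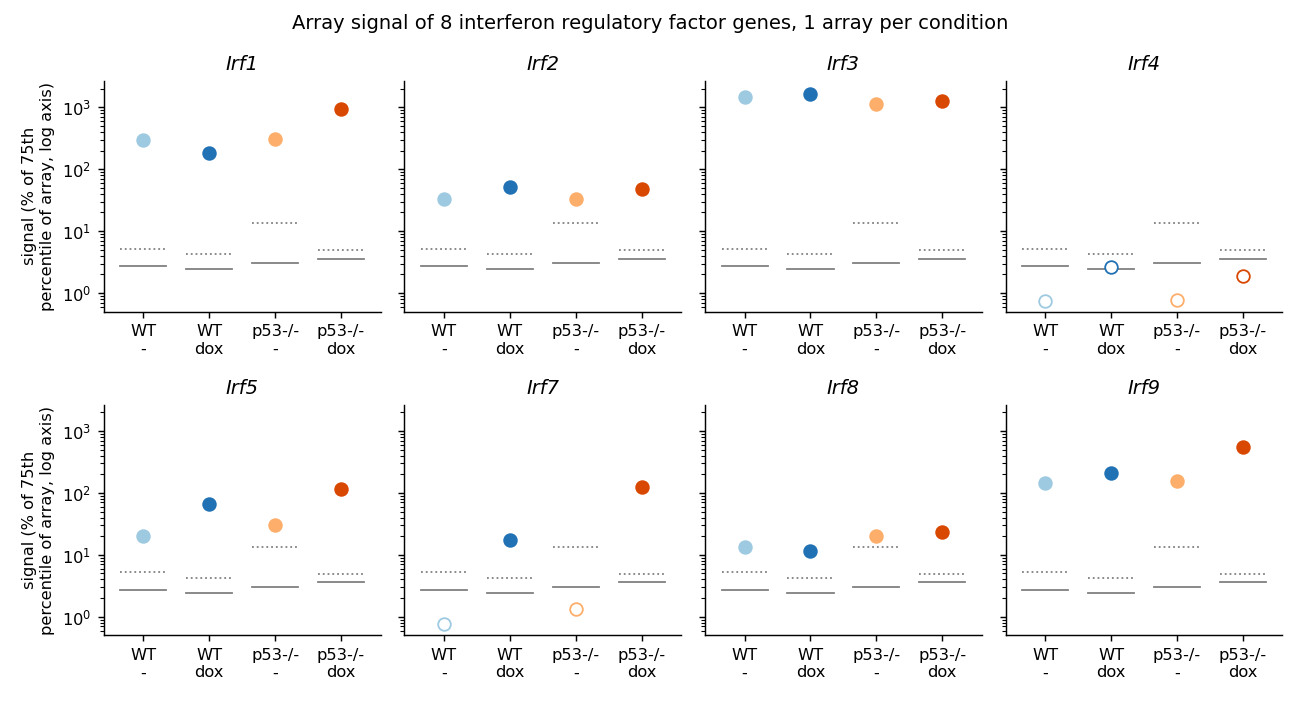
Signal of each member on the 4 arrays, as a percent of the 75th percentile of the array (log axis). Filled points were well above background and open points were not, bars (mostly smaller than the points) are the Feature Extraction error, grey lines are the lowest signal called well above background and dotted lines the brightest negative control of each array. Irf7 is filled with doxorubicin alone, at 17.5% in WT and 124% in p53-/- MEFs, and Irf4 is open on every array.

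With doxorubicin, Irf5 was higher in WT MEFs, and Irf1, Irf5 and Irf9 were higher in p53-/- MEFs. Irf7 was above background only with doxorubicin, in both genotypes. Irf1 was the one member on opposite sides of 0 in the 2 genotypes by more than 2 SD of repeat spots in each. Irf2, Irf3 and Irf8 stayed under 2-fold in both, and Irf4 was not measurable. In WT MEFs, 1 of 6 measured members was higher (1930 of 17513 genes, 11.0%, were) and 0 of 6 were lower (10.4% of genes). In p53-/- MEFs, 3 of 6 were higher (9.24% of 16953 genes) and 0 of 6 were lower (6.89% of genes). The median log2 ratio of the 6 measured members was 0.33 in WT and 1.09 in p53-/- MEFs, beside 0.01 and 0.00 over all genes measured.

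**Figure D2:**
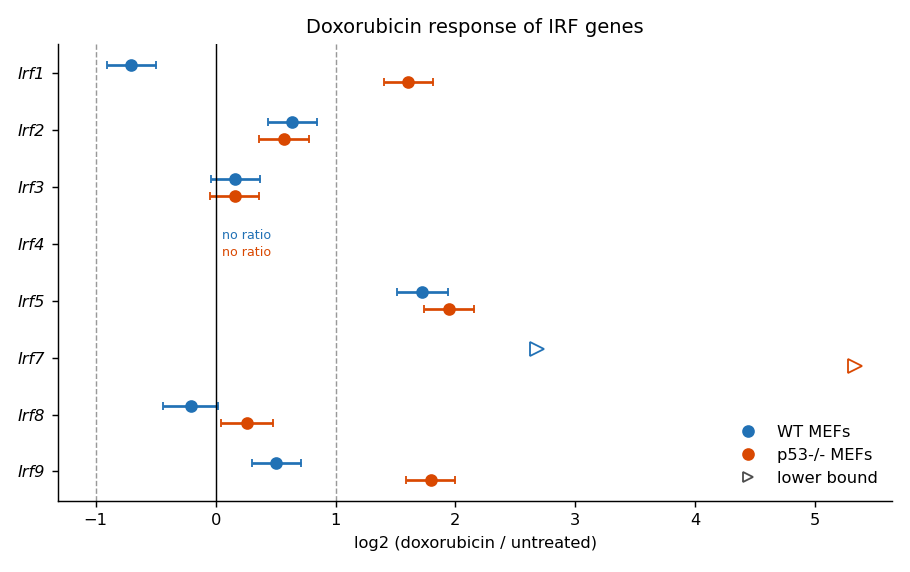
Log2 ratio of doxorubicin-treated over untreated MEFs for each member, WT in blue and p53-/- in orange. Bars are the Feature Extraction error, open triangles are lower bounds and dashed lines mark 2-fold. Irf1 lies at −0.70 in WT and 1.61 in p53-/- MEFs, and the pairs of Irf2, Irf3 and Irf5 lie close to each other.

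The kinase-activated factors come first. Irf3 is made without stimulation in most cells and is switched on by phosphorylation of the protein, which an RNA array does not read. Its probe (mm9 chr7:52257700-52257759) had a signal of 30085 in untreated WT, 29518 in doxorubicin-treated WT, 21379 in untreated p53-/- and 30717 in doxorubicin-treated p53-/- MEFs, or 1451%, 1623%, 1137% and 1269% of the 75th percentile. The 4 levels lay less than 2-fold apart. The log2 ratio with doxorubicin was 0.16 ± 0.20 in both genotypes, and each step between neighbours in the order of the 4 levels was under 0.23. The p53-/- over WT ratio was −0.35 without and −0.36 with doxorubicin, beyond 2 SD of repeat spots and under 2-fold.

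Irf7 is the amplifier of the type I interferon response, low in unstimulated cells and itself induced by interferon. Its probe has 60 bases and spans 351 bases of the genome (mm9 chr7:148450664-148451014), so it crosses a splice junction. It had a signal of 15.9 in untreated WT, 319 in doxorubicin-treated WT, 24.7 in untreated p53-/- and 2997 in doxorubicin-treated p53-/- MEFs, or 0.767%, 17.5%, 1.31% and 124% of the 75th percentile. The untreated arrays were not well above background and the treated arrays were. Set against the dimmest signal that still counted as well above background without doxorubicin, the treated level was at least 6.42-fold higher in WT and at least 40.2-fold higher in p53-/- MEFs. With the brightest untreated negative control in its place these bounds are 3.36-fold and 9.31-fold. Between the treated arrays, Irf7 was 7.06-fold higher in p53-/- than in WT MEFs (log2 2.82 ± 0.21), and 271 of 17892 genes had a higher ratio.

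Irf5 acts downstream of Toll-like receptors and Myd88 and activates inflammatory cytokine genes. Its probe (mm9 chr6:29486901-29486960) had a signal of 417 in untreated WT, 1207 in doxorubicin-treated WT, 573 in untreated p53-/- and 2849 in doxorubicin-treated p53-/- MEFs, or 20.1%, 66.4%, 30.5% and 118% of the 75th percentile. Both treated levels lay above both untreated levels, and every step in the order untreated WT, untreated p53-/-, treated WT, treated p53-/- was beyond 2 SD of repeat spots. With doxorubicin it rose 3.30-fold in WT (log2 1.72 ± 0.21) and 3.86-fold in p53-/- MEFs (1.95 ± 0.21). These ratios differed by 0.22 ± 0.30, less than the error. In WT MEFs 766 of 17513 genes, and in p53-/- MEFs 372 of 16953, had a higher ratio than Irf5.

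Irf1 and Irf2 bind the same element, Irf1 mostly as an activator induced by interferon-gamma and Irf2 mostly as its antagonist. The main Irf1 probe (mm9 chr11:53590746-53590805) had a signal of 6144 in untreated WT, 3311 in doxorubicin-treated WT, 5876 in untreated p53-/- and 23025 in doxorubicin-treated p53-/- MEFs, or 296%, 182%, 312% and 951% of the 75th percentile. The untreated genotypes differed by less than 2 SD of repeat spots, the treated WT level was the lowest and the treated p53-/- level the highest. The log2 ratio with doxorubicin was −0.70 ± 0.20 in WT, under 2-fold, and 1.61 ± 0.20 in p53-/- MEFs, a rise of 3.04-fold. The p53-/- ratio exceeded the WT ratio by 2.31 ± 0.29, and a larger excess was seen for 309 of 16513 genes with a value on each array. A second Irf1 probe (mm9 chr11:53591817-53591876), for another transcript variant, had signals of 11.9, 9.17, 11.7 and 19.4 and was not well above background on any array. With both probes averaged, the p53-/- ratio was 0.99, just short of 2-fold.

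Irf2 was measured by a probe at mm9 chr8:47932486-47932545, with a signal of 686 in untreated WT, 938 in doxorubicin-treated WT, 610 in untreated p53-/- and 1167 in doxorubicin-treated p53-/- MEFs, or 33.1%, 51.6%, 32.4% and 48.2% of the 75th percentile. The treated pair lay above the untreated pair, and the genotypes within each pair differed by less than 2 SD of repeat spots. The log2 ratio with doxorubicin was 0.64 ± 0.21 in WT and 0.57 ± 0.21 in p53-/- MEFs, both under 2-fold. Their difference was −0.07 ± 0.29. Irf1 and Irf2 thus had ratios of opposite sign in WT MEFs and of the same sign in p53-/- MEFs.

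Irf9 is the DNA-binding subunit of the complex with Stat2. Its probe (mm9 chr14:56228806-56228865) had a signal of 3021 in untreated WT, 3763 in doxorubicin-treated WT, 2948 in untreated p53-/- and 13167 in doxorubicin-treated p53-/- MEFs, or 146%, 207%, 157% and 544% of the 75th percentile. The untreated genotypes differed by less than 2 SD of repeat spots, and the treated p53-/- level stood above the rest. The log2 ratio with doxorubicin was 0.51 ± 0.20 in WT, under 2-fold, and 1.79 ± 0.20 in p53-/- MEFs, a rise of 3.47-fold. The difference was 1.29 ± 0.29, and 1089 of 16513 genes had a larger one.

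Irf8 and Irf4 are known for their roles in myeloid and lymphoid cells. The Irf8 probe (mm9 chr8:123280324-123280383) had a signal of 273 in untreated WT, 207 in doxorubicin-treated WT, 374 in untreated p53-/- and 576 in doxorubicin-treated p53-/- MEFs, or 13.2%, 11.4%, 19.9% and 23.8% of the 75th percentile. Both p53-/- levels lay above both WT levels, and the WT pair differed by less than 2 SD of repeat spots. The log2 ratio with doxorubicin was −0.21 ± 0.23 in WT and 0.26 ± 0.22 in p53-/- MEFs, and the difference was 0.47 ± 0.31. The Irf4 probe (mm9 chr13:30858532-30858591) had signals of 15.3, 47.1, 14.5 and 44.9 and was not well above background on any array, so it has no ratio. Of 16 leukocyte markers, 9, 10, 10 and 8 were well above background on the 4 arrays, with summed levels of 1756%, 2501%, 1967% and 1674% of the 75th percentile. Among others, Spi1, Cd8a, Cd79a and Ms4a1 were not well above background on any array. The Itgam probe, with signals of 26264, 31691, 28368 and 28337, made up most of each sum. Csf1r (2739 to 5530), Cd4 (1999 to 2600) and Cd14 were well above background on every array as well, and Cd14 rose in WT MEFs (3.74, from 513 to 6020). Between treated genotypes, p53-/- over WT was 0.60 for Csf1r, 0.74 for Aif1, −0.57 for Itgam and −2.84 for Cd14, so the markers did not move in 1 direction. Their part in the values of Irf4, Irf5, Irf7 and Irf8 was not tested.

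The members were also compared by genotype. Among untreated MEFs, 0 of 6 measured members were at least 2-fold higher in p53-/- than in WT MEFs (2.15% of 17287 genes were) and 0 of 6 were lower (2.61% of genes). The nearest to the 2-fold line were Irf5 at a log2 ratio of 0.60 ± 0.22 and Irf8 at 0.59 ± 0.22. Among doxorubicin-treated MEFs, 4 of 7 members were higher in p53-/- MEFs (11.9% of 17892 genes) and 0 of 7 were lower (10.3% of genes). These were Irf7 (2.82), Irf1 (2.38, 5.22-fold), Irf9 (1.39, 2.63-fold) and Irf8 (1.06, 2.08-fold). Irf8 is just inside the line and fell short of it with median scaling (0.99) and with normexp background correction (0.84), which left 3 of 7. Irf5 was just outside it at 0.83 ± 0.21. The doxorubicin ratio was at least 1 log2 unit higher in p53-/- than in WT MEFs for 2 of 6 members, Irf1 and Irf9 (9.86% of 16513 genes), and at least 1 lower for 0 of 6 (8.37% of genes). The treated p53-/- array enters both this difference and the ratios within and between genotypes, so these values are not independent of each other.

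**Figure D3:**
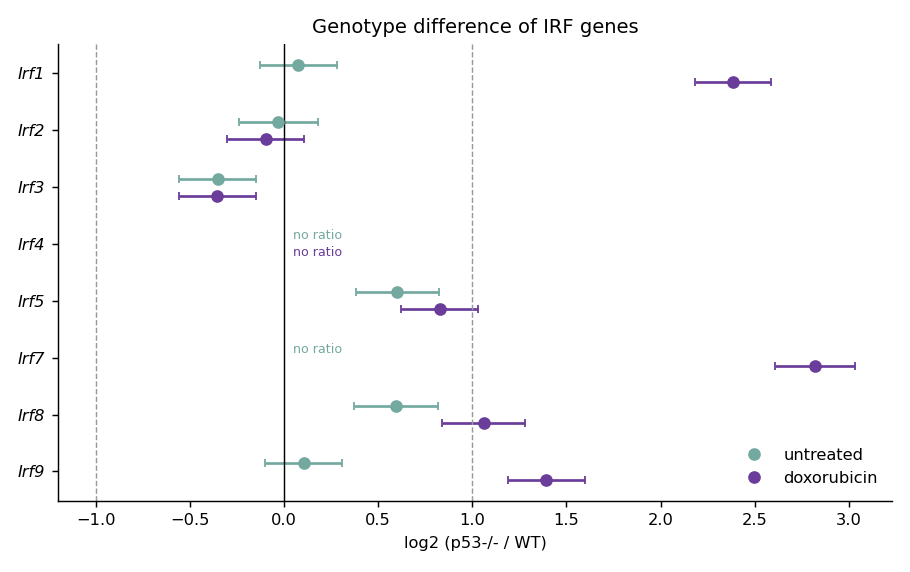
Genotype comparison of each member as the log2 ratio of p53-/- over WT, untreated in green and doxorubicin-treated in purple. Bars are the Feature Extraction error and dashed lines mark 2-fold. Without doxorubicin every measured member lies between −0.35 and 0.60, and with it 4 lie beyond 1.

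**Figure D4:**
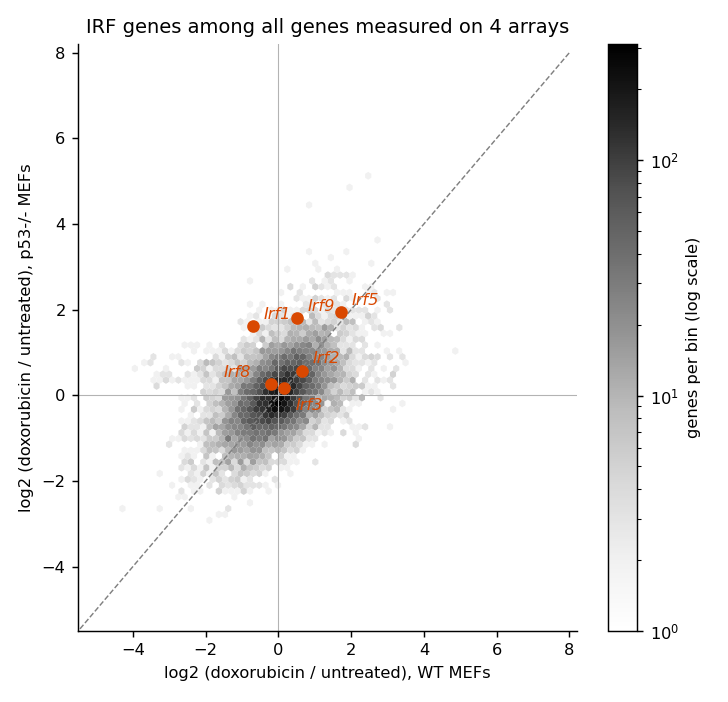
Log2 ratio of doxorubicin-treated over untreated in WT (horizontal) against p53-/- MEFs (vertical) for the 16513 genes measured on all arrays, in grey by the number of genes per bin, with 6 members in orange. The dashed line marks equal ratios. Irf1 and Irf9 lie above the line, and Irf2, Irf3 and Irf5 close to it.

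For each member measured on all arrays, the genes with the most similar 4 levels (centred on their mean, Euclidean distance on the log2 scale, 16512 other genes) were listed. The nearest named gene was Lck for Irf1 (distance 0.092), Eif2d for Irf2 (0.013), Os9 for Irf3 (0.026), Jam2 for Irf5 (0.173), Zfp512 for Irf8 (0.061) and Neto2 for Irf9 (0.076). No member was among the 3 nearest of another. With 4 arrays this is a description of likeness only.

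Genes that act above the IRFs were read from a list of 20 sensors, adaptors and kinases, of which 19 were measured in each genotype. In WT MEFs 3 were higher with doxorubicin and 1 was lower (median log2 ratio 0.19), where 11.0% and 10.4% of all genes were. In p53-/- MEFs 5 were higher and 0 were lower (median 0.28), where 9.24% and 6.89% of all genes were. The RNA sensor gene Ifih1 rose in both, by 1.86 in WT and 3.36 in p53-/- MEFs on the log2 scale. Ddx58, which encodes the RNA sensor RIG-I, had 0.40 in WT and rose by 2.76 in p53-/- MEFs by its brighter probe. Its dimmer probe, well above background on every array, rose in both, by 1.05 and 2.02. Mb21d1, which encodes the DNA sensor cGAS, had signals of 1259, 260, 1746 and 4574 in the order above by its brightest probe. This was a fall in WT (−2.08) and a rise in p53-/- MEFs (1.02), just past 2-fold. A dimmer probe, well above background on both p53-/- arrays, had 0.91 there, under 2-fold. Ikbke, a kinase of Irf3 and Irf7, had signals of 183, 785, 121 and 184, the untreated p53-/- one under that array's brightest negative control. It rose in WT (2.29) and had 0.24 in p53-/- MEFs. Tbk1, the other such kinase, had 0.30 and −0.06. Myd88, the adaptor upstream of Irf5, had 1.16 in WT, a rise, and 0.77 in p53-/- MEFs.

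Of 15 interferon ligand genes, 13 had a probe and 4 were measured in each genotype, with 0 called higher or lower in either. Of all genes, 11.0% were higher and 10.4% lower in WT MEFs, and 9.24% and 6.89% in p53-/- MEFs. Ifnb1, a target of Irf3 and Irf7, had signals of 12.4, 23.9, 12.0 and 337 and stood well above background on the treated p53-/- array alone. Beside the same shares of all genes, 0 of 10 measured receptor, JAK and STAT genes were called in WT MEFs. In p53-/- MEFs, 0 of 9 were lower and 1 of 9 was higher. That gene was Stat2, the partner of Irf9, with signals of 4184, 5530, 4094 and 28890. Its ratio was 0.59 in WT, and it rose by 2.45 in p53-/- MEFs.

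The list of co-regulators and inhibitors of IRFs had 11 of 12 genes measured. In WT MEFs 2 were higher with doxorubicin and 1 was lower (median 0.36, beside 11.0% and 10.4% of all genes), and in p53-/- MEFs 4 were higher and 0 were lower (median 0.31, beside 9.24% and 6.89%). Usp18, which restrains signalling from the interferon receptor, rose by 5.39 in WT and 6.62 in p53-/- MEFs. Its signals were 148, 5455, 163 and 20612 in the order above. The untreated p53-/- signal lay under the brightest negative control of that array (250), so the size of the p53-/- rise rests on a dim signal. Tnfaip3, an inhibitor of NF-kappaB signalling, rose by 2.70 and 3.58. Socs1, an inhibitor of JAK kinases, had 0.00 in WT and rose by 1.41 in p53-/- MEFs, whereas the related Socs3 fell in WT (−1.93) and had −0.27 in p53-/- MEFs. Trim21, a ubiquitin ligase that acts on IRF proteins, had 0.91 in WT and rose by 2.52 in p53-/- MEFs. By the brightest probe of each, the genes of the Irf2-binding proteins, Irf2bp1, Irf2bp2 and Irf2bpl, lay between −0.27 and 0.43 in both genotypes. A dimmer Irf2bp2 probe, well above background on every array, had −0.34 in WT and −0.58 in p53-/- MEFs, both under 2-fold.

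Of 20 interferon-stimulated genes, 9 of 14 measured were higher with doxorubicin in WT MEFs (median 1.69) and 14 of 15 in p53-/- MEFs (median 4.09), with 0 lower in either, beside the same shares of all genes. Isg15, a ubiquitin-like modifier, rose by 2.63 in WT and 4.09 in p53-/- MEFs. Ifit3, an antiviral effector, rose by 1.14 and 5.11, and Gbp2, a GTPase, by 1.49 and 5.62. Between treated genotypes, 16 of 18 were higher in p53-/- MEFs and 2 were lower (11.9% and 10.3% of all genes), the antigen-processing genes Tap1 (−2.25) and Psmb9 (−1.04). The immunoproteasome gene Psmb8 had 0.09 in WT and rose by 3.24 in p53-/- MEFs, while Psmb9 rose in both (3.79 and 3.19). Among untreated MEFs, 2 of 13 were higher in p53-/- MEFs (2.15% of all genes) and 0 were lower (2.61% of all genes). The 2 higher ones were the chemokine genes Cxcl10 (1.85) and Ccl5 (1.18). These lists were drawn up with earlier results of the same arrays known, so their counts are a description.

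**Figure D5:**
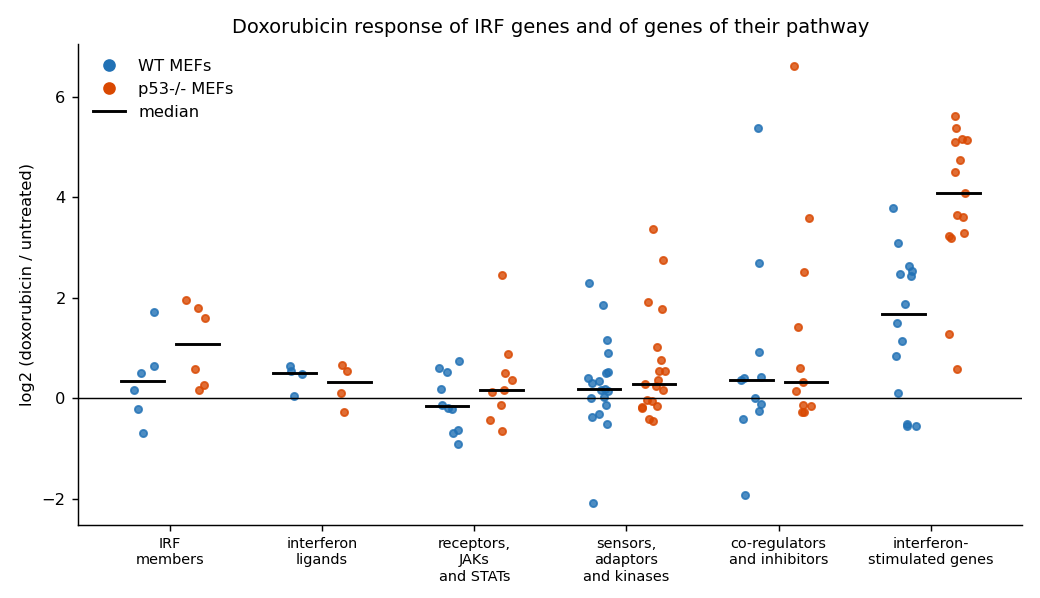
Log2 ratio of doxorubicin-treated over untreated MEFs for the measured genes of the IRF members and of 5 lists of their pathway, WT in blue and p53-/- in orange, with the median as a black line. The interferon-stimulated genes have medians of 1.69 in WT and 4.09 in p53-/- MEFs, and the IRF members 0.33 and 1.09.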

How the data were processed

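RNA of 4 MEF samples was hybridized to 1-colour Agilent arrays, 1 per condition. From 200 ng of total RNA per sample the authors made Cy3-labeled cRNA. Feature Extraction 10.7.3.1 subtracted background and detrended each array, and the deposited intensity was not normalized between arrays. The deposited value table equals it. The deposited flags, a score of 0 or 1 from Feature Extraction, mark spots well above background, saturated (0 here) or outlying, and none of the member spots was outlying. The number of arrays limits the precision, so no test was made.

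Outlier spots were left out, repeat spots were averaged on the log2 scale, and arrays were scaled to their 75th percentile. The probe with the highest mean stood for its gene. Where 1 array of a pair was well above background, a bound against the lowest such signal of the other was given. Named genes were the 8 members, Trp53, genes of the pathway and marker lists, and the 3 nearest profiles per member. Some genes of the lists are counted but not reported here by name. Members and lists were chosen with earlier results of these data known. The paper's fold changes from the Subio Platform were not used. Names came from a RefSeq table and promoters from RefSeq (GRCm38.p6), while probes are placed on mm9, as in the files. The scaling and the 2-fold call were tested on simulated data. Outlier spots, repeat spots, the choice among probes of a gene and the bounds were not part of that test. Python 3.11.15, numpy 2.4.6, pandas 2.3.3, matplotlib 3.10.9 and, for normexp, R 4.3.3 with limma 3.58.1 were used.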

Additional observations from a re-analysis of the deposited data

Results flagged for a closer look

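Irf1 and 6 genes of the pathway lists had doxorubicin ratios of opposite sign in the genotypes that were each beyond 2 SD of repeat spots (0.23), with 1 array per condition and no test of the difference. The log2 difference (p53-/- minus WT) was 2.31 for Irf1 (−0.70 in WT and 1.61 in p53-/- MEFs). It was 4.19 for Oasl1 (−0.55 and 3.64), 3.11 for Mb21d1 (−2.08 and 1.02) and 1.79 for Ifit2 (−0.51 and 1.27). It was 1.13 for Ccl5 (−0.56 and 0.58), 1.06 for Tmem173 (−0.52 and 0.54) and 0.72 for Ptpn2 (−0.41 and 0.31). Of these, the WT ratio reached 2-fold in Mb21d1 alone. The share of all measured genes that meet the same rule is not given here, so the number is no trait of these lists.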

How the results depend on the processing

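The settings tried were median scaling, quantile normalization, background correction by normexp, all probes without a filter, signals above the brightest negative control, detection on all arrays, all probes of a gene averaged, the value table, and thresholds of 1.5-fold and 3-fold. Without the filter on dim probes, 3 members were higher with doxorubicin in WT and 5 in p53-/- MEFs. The added members are Irf4 and Irf7, whose ratios then come from signals near background. Of all genes, 4900 of 31704 in WT and 4719 of 31708 in p53-/- MEFs were higher under this setting. At 1.5-fold, 2 members were higher and 1 was lower in WT MEFs, and 2 were higher in untreated p53-/- than in untreated WT MEFs. At 3-fold, 2 were higher in treated p53-/- than in treated WT MEFs, and 1 had a doxorubicin ratio larger by that much in p53-/- MEFs. Shares of all genes at 1.5-fold and 3-fold are not given here, so these counts are a description. The other 83 counts of members stayed within 1.5 times. Median scaling shifted the middle of all genes by doxorubicin to −0.27 (WT) and −0.30 (p53-/-) on the log2 scale, and the share of calls that were higher from 51.4% to 32.1% and from 57.3% to 31.3%. It turned the sign of the doxorubicin ratio of Irf3 (−0.11 in WT and −0.14 in p53-/- MEFs) and of Irf8 in p53-/- MEFs (−0.04), none of them called. The mean of both Irf1 probes lowered its ratio in treated p53-/- over WT MEFs to 1.53 and its difference between genotypes to 1.43, and the Irf8 ratio between treated genotypes was 0.84 with normexp and 0.99 with median scaling, both under 2-fold. Without the filter on dim probes, 14 interferon-stimulated genes were higher in WT MEFs, against 9. In p53-/- MEFs, 10 were higher where signals had to exceed the brightest negative control, against 14. Ifit1, Mx2, Ifi44 and Psmb9 have no ratio in that setting, since their untreated p53-/- signals lay under this control. Of all genes, 875 of 14208 were higher there. List counts and differences under these settings were added after the values were seen. With 1 array per condition no array could be left out, and slide as a block was not run, as there was 1 slide. No paired analysis was possible because each condition has 1 array.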
